A study of Saccharomyces cerevisiae with 4 samples.

Results

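The genes described here make, hold and break down inorganic polyphosphate in budding yeast, Saccharomyces cerevisiae. They were chosen by name as 7 rows of a table of 7126 features: VTC1, VTC2, VTC3, VTC4 and VTC5, which encode the vacuolar transporter chaperone (VTC) complex, and PPN1 and PPX1, which encode polyphosphatases. All 7 were found and all passed the filter, a mean of at least 1 FPKM over the libraries. The set was proposed with values of the same mutant and wild-type comparison in view, so the differences of its members between genotypes are given as a description, without a test.

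RNA was measured in 2 libraries from a strain lacking DBP2 and 2 from wild type, to ask how the transcriptome differs without the DEAD-box RNA helicase Dbp2. The mutant, called dbp2null, is strain BTY115, MATa, with dbp2::KanMx in place of DBP2 and the further alleles ura3Δ0, leu2Δ0, his3Δ0, TRP1, met- and lysΔ. The wild type is MATa with his3Δ1, leu2Δ0, met15Δ0 and ura3Δ0. Both strains were grown in YPD, a rich glucose medium, at 30 °C to an OD600 of about 0.4, and total RNA was depleted of ribosomal RNA. The absence of DBP2 and the other differences between the strains cannot be told apart. Values are FPKM, the fragment number scaled to feature length and to the library.

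Before the results, a few facts of the libraries bear on every value. DBP2 read 213 and 199 FPKM in wild type and was nearly absent from dbp2null, with 2.90 FPKM in replicate 1 and 1.03 FPKM in replicate 2. Both strain labels name a deletion allele of HIS3. Its FPKM was nonetheless 80.4 and 73.7 for dbp2null, overlapping the 60.9 and 78.9 for wild type. Markers on which the labels differ stood far apart. LYS2, with lysΔ on the mutant label, gave 1.63 and 0.679 FPKM for dbp2null against 37.8 and 31.7 for wild type. MET17, also named MET15, with met15Δ0 on the wild-type label, gave 31.5 and 22.5 FPKM for dbp2null against 0.237 and 0.422. Both genotypes carried the markers of a MATa haploid: the summed FPKM of 5 MATa genes ran from 759 to 33123, and that of 4 MATalpha genes from 23.5 to 70.4. Across features on the log2 scale, Pearson's r was 0.97 between the wild-type libraries and 0.81 between the dbp2null libraries. The library sums were uneven, and dbp2null replicate 2 had the lowest. FPKM summed over all features to 50064486 and 3373067 in dbp2null replicates 1 and 2, and to 52886924 and 32243557 in wild type. Over protein-coding features the sums were 2297338 and 681688 in dbp2null, and 2187684 and 2237774 in wild type. Short messages were lower in dbp2null replicate 2: for 580 protein-coding features of 300 to 500 bases the median log2 difference from replicate 1 was -0.74, against 0.27 for 799 features of 2000 to 3000 bases. The median log2 difference of all 6781 tested features, dbp2null minus wild type, was 0.28.

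Polyphosphate is a chain of phosphate residues that yeast keeps mainly in the vacuole as a phosphate store. The VTC complex sits in the vacuolar membrane, builds the chain from ATP and passes it into the vacuole, and its larger subunits carry SPX domains, which sense inositol pyrophosphates. When phosphate is scarce, the transcription factor Pho4 enters the nucleus and activates phosphate genes, among them several VTC genes, through the sequence CACGTG, an E-box that other factors such as Cbf1 also bind.

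The upstream sequences are shown first because VTC1 to VTC4, which read lower in dbp2null, have a motif in common that was not found before the other 3 genes. Of those 3, PPX1 also read slightly lower, at 88.6% of the wild-type mean. CACGTG lay within the 500 bases before the annotated start of VTC1, VTC2, VTC3 and VTC4, and in that window neither CACGTG nor the variant CACGTT, on either strand, was found for VTC5, PPN1 or PPX1. The 500-base window was chosen after a window of 250 bases before to 50 after the start had been searched, in which CACGTG was found for VTC1 and VTC4. Of 6002 nuclear protein-coding genes of the RefSeq R64 assembly, 6.23% held CACGTG in the longer and 2.92% in the shorter window, and 16.0% and 9.11% held CACGTT on either strand. Sites of the 2 motifs cannot overlap, and CACGTG reads the same on both strands. Each line below runs 5′ to 3′ on the strand of the gene and starts 30 bases before the first motif, with the motifs in capitals.
VTC1: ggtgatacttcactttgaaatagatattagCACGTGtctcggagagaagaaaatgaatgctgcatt
VTC2: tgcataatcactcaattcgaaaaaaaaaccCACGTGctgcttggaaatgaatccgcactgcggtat
VTC3: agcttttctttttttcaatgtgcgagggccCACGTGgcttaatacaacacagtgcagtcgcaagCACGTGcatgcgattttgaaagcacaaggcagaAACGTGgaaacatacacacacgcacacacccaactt
VTC4: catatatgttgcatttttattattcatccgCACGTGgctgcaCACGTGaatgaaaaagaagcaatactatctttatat
PPN2: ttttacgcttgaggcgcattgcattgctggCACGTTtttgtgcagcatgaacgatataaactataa

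These stretches are, in the R64 assembly, chrV:302619-302684 (plus strand) for VTC1, chrVI:131469-131534 (plus) for VTC2, chrXVI:517261-517393 (minus) for VTC3 and chrX:413477-413554 (minus) for VTC4. PPN2, a vacuolar endopolyphosphatase gene outside the 7, is shown because it was the gene closest in pattern to VTC2, and its stretch is chrXIV:240080-240145 (plus). Counting the base just before the start as -1, the E-box began at -157 for VTC1 and at -311 for VTC2. VTC3 had CACGTG at -345 and at -311 and AACGTG, the reverse complement of the variant, at -278. VTC4 had CACGTG at -125 and -113. The VTC2 motif touches the annotated start of RUF20, a non-coding RNA gene that runs the other way, and the other motifs of these 4 genes lie between annotated genes. A match of letters does not show binding.

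**Figure D1:**
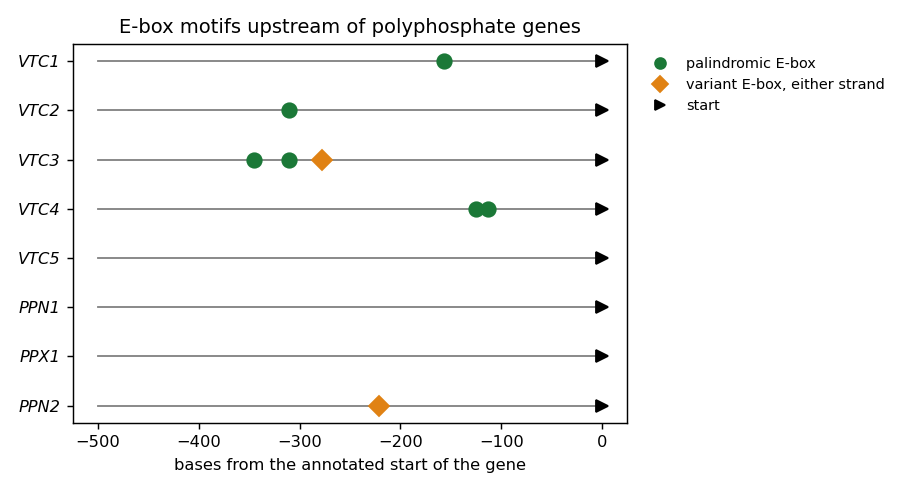
Positions of E-box motifs in the 500 bases upstream of the 7 genes and of PPN2, in bases from the annotated start; circles are the palindromic motif CACGTG and diamonds the variant CACGTT on either strand. VTC1 to VTC4 each carry at least 1 circle, and VTC5, PPN1 and PPX1 carry none.

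The subunits of the core complex read lower in dbp2null, in both libraries and for all of VTC1 to VTC4, while VTC5 and the polyphosphatases PPN1 and PPX1 lay close to wild type. VTC3 stood lowest against wild type, at 20.0% of the wild-type mean, followed by VTC1 at 25.1%, VTC4 at 31.1% and VTC2 at 48.2%. VTC5 stood at 128%, PPN1 at 143% and PPX1 at 88.6%. In bulk RNA a lower level in every cell and a loss in part of the cells cannot be told apart.

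VTC4 (YJL012C, chromosome X, 411234 to 413399, minus strand) encodes the subunit that carries out the polymerisation. In wild type it read 147 and 136 FPKM, in dbp2null replicate 1 it read 43.7 and in replicate 2 44.4 FPKM. The dbp2null libraries agree within 0.021 on the log2 scale and lie well below both wild-type libraries. The log2 difference is -1.66 (SE 0.23) on the log2(FPKM + 1) scale used throughout. Each SE comes from the fit over all tested features and draws on the spread of other features as well as the gene's own.

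VTC1 (YER072W, chromosome V, 302806 to 303195, plus strand) encodes the small membrane subunit and was by far the highest of the 7 per length. In wild type it read 1922 and 2358 FPKM, in dbp2null 732 and 343 FPKM. The groups do not overlap, but the dbp2null libraries differ from each other by 1.09 on the log2 scale. The log2 difference of -2.09 has an SE of 0.72. At 390 bases VTC1 falls in the length class in which dbp2null replicate 2 was low, and without that library its log2 difference was -1.54. Among protein-coding features VTC1 ranked above 97.4% and 97.6% in wild type and above 96.0% and 96.8% in dbp2null, so its place in the order of genes hardly moved. With quantile normalization, which compares genes by rank, its difference was -0.30, the smallest in size of 17 other settings. It was -1.02 with cyclic loess normalization and -2.42 with median centring.

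VTC2 and VTC3 encode paralogous subunits, of which each complex holds one or the other. VTC3 (YPL019C, chromosome XVI, 514511 to 517018, minus strand) had wild-type values of 113 and 103 FPKM and dbp2null values of 20.9 and 22.3 FPKM. This is a log2 difference of -2.27 (SE 0.19), with all 4 pairs of a mutant and a wild-type library between -2.38 and -2.16. VTC2 (YFL004W, chromosome VI, 131810 to 134296, plus strand) had wild-type values of 79.1 and 68.7 FPKM and dbp2null values of 32.1 and 39.2 FPKM, a log2 difference of -1.04 (SE 0.22).

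The order of these paralogs differed between the genotypes. The ratio of VTC2 to VTC3 FPKM within a library was 1.53 and 1.76 in dbp2null and 0.701 and 0.668 in wild type. This ratio does not depend on how libraries are scaled. VTC3 lay above VTC2 in both wild-type libraries and below it in both mutant libraries. The longest nucleotide alignment between these genes spans 940 bases at 66.2% identity, and blastn aligned no member to any other place in the genome.

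VTC5 (YDR089W, chromosome IV, 622112 to 624721, plus strand) encodes an accessory subunit that raises the activity of the complex. It was the lowest of the 7 in every library, with 15.4 and 15.7 FPKM in wild type, and 18.2 and 21.6 FPKM in dbp2null. Its log2 difference of 0.33 (SE 0.18) is close to the 0.28 of the median feature. It lies below the median of 0.53 for protein-coding features of 2000 to 3000 bases, the length class of VTC5. The VTC5 difference turned negative under several scalings, to -0.52 with quantile normalization. Genes that a MATa cell keeps silent also read higher in dbp2null, such as the MATalpha receptor gene STE3 (4.54 and 2.69 FPKM in wild type, 5.47 and 15.5 FPKM in dbp2null), and the part of such a shift in VTC5 was not tested.

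Of the breakdown genes, PPN1 read slightly higher and PPX1 slightly lower than wild type. PPN1 (YDR452W, chromosome IV, 1362878 to 1364902, plus strand), for a vacuolar polyphosphatase, had wild-type values of 36.4 and 27.3 FPKM and dbp2null values of 49.4 and 41.3 FPKM, a log2 difference of 0.51 (SE 0.23). Against the median of all features this is 0.23. Protein-coding features of 2000 to 3000 bases, the length class of PPN1, had a median log2 difference of 0.53, about that of PPN1. PPX1 (YHR201C, chromosome VIII, 499950 to 501143, minus strand), for the cytosolic exopolyphosphatase, had wild-type values of 56.8 and 50.2 FPKM and dbp2null values of 46.4 and 48.4 FPKM, a log2 difference of -0.17 (SE 0.20), the smallest in size of the 7. For both genes the groups do not overlap, but the gap between the nearest libraries is 0.18 for PPN1 and 0.051 for PPX1 on the log2 scale, less than the 0.40 and 0.17 between their wild-type libraries.

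**Figure D2:**
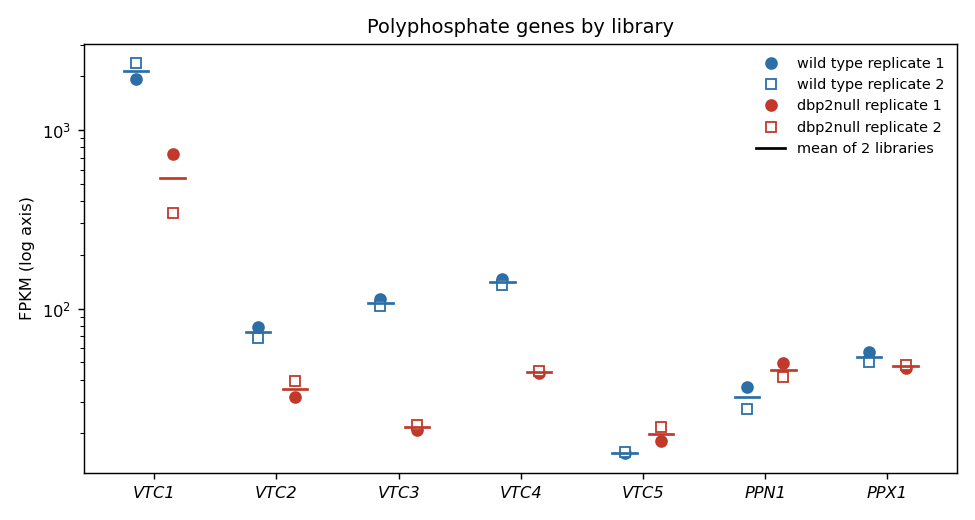
FPKM (log axis) of the 7 polyphosphate genes, with circles for replicate 1, squares for replicate 2, bars for the mean of 2 libraries, blue for wild type and red for dbp2null. VTC1 to VTC4 lie lower in both dbp2null libraries, VTC3 at 20.9 and 22.3 against 113 and 103 FPKM, while VTC5, PPN1 and PPX1 stay within 1.5 times of wild type by their means.

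The genotypes did not overlap for any of the 7, as for 70.5% of all tested features. Of the 7, 5 had both dbp2null values below both wild-type values, where 20.7% of features did, and the other 2 had both above, where 49.8% did. By limma with an adjusted p below 0.05, 1 of the 7 was called, VTC3, against 1.19% of all tested features (0.221% called lower). The VTC3 call ended in 10 of 17 other settings, among them the loss of either wild-type library or of dbp2null replicate 2. Since the same comparison was in view when the genes were proposed, nothing is read from these counts. The median log2 difference was -1.04 over the 7 and -1.87 over VTC1 to VTC4.

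The order of levels per length differed between the genotypes. In wild type the order in both libraries was VTC1, VTC4, VTC3, VTC2, PPX1, PPN1, VTC5. In dbp2null replicate 1 it was VTC1, PPN1, PPX1, VTC4, VTC2, VTC3, VTC5, and in replicate 2 VTC1, PPX1, VTC4, PPN1, VTC2, VTC3, VTC5. In dbp2null the PPN1 values of 41.3 and 49.4 FPKM enclose those of VTC4 and PPX1, so PPN1 has no settled place among these 3 there.

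Ratios within a library show the same without any scaling between libraries. VTC4 stood at 4.05 and 4.99 times PPN1 in wild type and at 0.885 and 1.08 times in dbp2null. Against PPX1 it stood at 2.59 and 2.71 times in wild type and at 0.943 and 0.916 times in dbp2null. Against VTC5 it stood at 9.54 and 8.66 times in wild type and at 2.40 and 2.06 times in dbp2null. For each of these 3 ratios the wild-type values exceed the dbp2null values by more than the replicates differ. By contrast, VTC1 to VTC4, the ratio of the small membrane subunit to the catalytic one, was 13.0 and 17.3 in wild type and 16.7 and 7.72 in dbp2null, which overlap.

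Of the 7, VTC3 differed most in rank. It was above 81.9% and 80.7% of protein-coding features in wild type and above 21.3% and 14.6% in dbp2null. VTC4 went from 85.5% and 84.8% to 56.5% and 59.7%, and VTC2 from 75.4% and 74.0% to 42.7% and 51.9%. PPN1, at 56.3% and 50.1% in wild type and 62.3% and 55.1% in dbp2null, overlapped between genotypes.

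**Figure D3:**
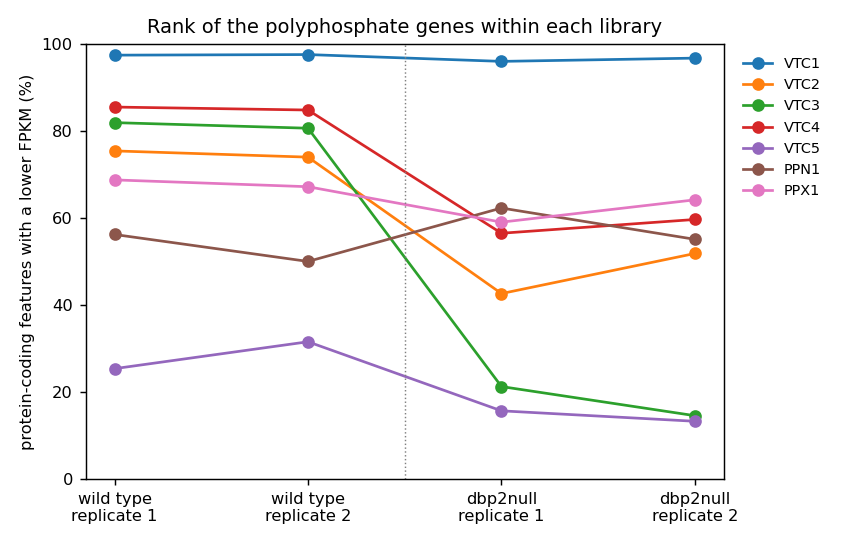
Share of protein-coding features with a lower FPKM than each gene, in percent, for the 4 libraries, with a line for each gene. VTC2, VTC3 and VTC4 drop between wild type and dbp2null, VTC3 from 81.9% and 80.7% to 21.3% and 14.6%, whereas VTC1 stays above 96.0% throughout.

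The sign of the VTC1 to VTC4 differences did not depend on the scaling of the libraries, but their size did. Over 17 other settings of scaling, filter, model and libraries, VTC3 ran from -2.60 to -1.46, VTC4 from -2.00 to -0.85, VTC2 from -1.37 to -0.22 and VTC1 from -2.63 to -0.30. The smallest sizes for VTC2, VTC3 and VTC4 came from rescaling libraries to their protein-coding features, whose sum was lowest in dbp2null replicate 2. That rescaling moved the median of all features to 1.08. Relative to that median VTC2, VTC3 and VTC4 then lay at -1.31, -2.54 and -1.93, against -1.32, -2.55 and -1.94 with the deposited values. PPN1 was positive in all 17, PPX1 negative in 16 and VTC5 negative in 3.

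**Figure D4:**
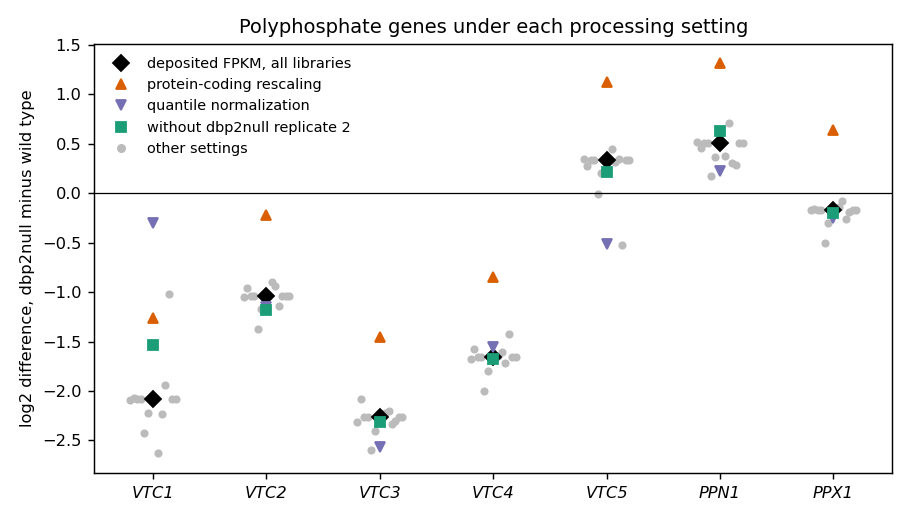
Log2 difference, dbp2null minus wild type, of each gene with the deposited values (black diamonds), with 3 marked settings and with all other settings (grey). VTC1 to VTC4 stay below 0 in each, while VTC5 and PPX1 have points on both sides of 0.

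Genes next to the members on the chromosome did not all share their direction. CTF19, a kinetochore gene that shares the upstream region and E-boxes of VTC3 and runs the other way, had wild-type values of 16.4 and 14.0 FPKM and dbp2null values of 25.9 and 31.8 FPKM, on the opposite side from VTC3. TDA2, next to VTC1 across a shared upstream region of 478 bases, had dbp2null values of 152 and 68.3 FPKM on both sides of the wild-type values of 92.1 and 99.3 FPKM. RUF20, whose annotated start meets the VTC2 motif, overlapped too (18.0 and 20.1 FPKM in wild type, 20.5 and 9.78 FPKM in dbp2null). ALD5, an aldehyde dehydrogenase gene downstream of VTC1, stood lower in dbp2null (152 and 163 FPKM in wild type, 59.8 and 38.2 FPKM in dbp2null). The limma adjusted p of these 4 genes lay between 0.0585 and 0.890.

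By Euclidean distance over the 4 libraries, after each gene's mean log2(FPKM + 1) was removed, the genes most like each member were sought among named features with a mean of 10 FPKM or more. Of the 5 nearest to each, genes of the phosphate and vacuole lists described below stood among those of VTC2, VTC3, VTC4 and PPN1. None was found among those of VTC1, VTC5 and PPX1. Most of the nearest genes were on no such list. The share of list genes among all ranked features was not taken, so nothing is read from this. The nearest to VTC2 of 5202 was PPN2 at a distance of 0.12, with wild-type values of 123 and 112 FPKM and dbp2null values of 52.3 and 57.8 FPKM. Next came CAR2, SCP160, SER2 and PGM1. The second nearest to VTC4 was PHO84, the high-affinity phosphate transporter gene, at a distance of 0.27 (205 and 198 FPKM in wild type, 50.8 and 64.8 FPKM in dbp2null), after the mitochondrial chaperone gene SSC1 at 0.19. STI1, HSP60 and DYS1 followed. The fifth nearest to VTC3 was SPL2, a regulator of low-affinity phosphate uptake, at a distance of 0.48 (103 and 86.5 FPKM in wild type, 19.2 and 29.3 FPKM in dbp2null), after the hexokinase gene HXK2 and the genes URA4, RPL8A and URA1. The second nearest to PPN1 was PHO4 itself, at a distance of 0.087 (31.0 and 23.7 FPKM in wild type, 40.2 and 36.3 FPKM in dbp2null). It came after BIO4 and before ABF1, IMO32 and TAF3.

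Other members were not among the 5 nearest of any member. VTC4 was 18th nearest to VTC3 and VTC3 was 87th nearest to VTC4. Nearest to VTC1 were SAH1, RPL9B, TDH2, RPL18B and RIB4, all of them lower in dbp2null replicate 2 than in replicate 1 as VTC1 was. Over 4 libraries such a distance is a description.

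Other genes of phosphate signalling and the vacuole lay on either side of wild type. Of 59 genes in 7 lists on phosphate signalling, polyphosphate and the vacuole, limma called 1, PHM8, and 19 (32.2%) had an unadjusted p below 0.05, as had 37.9% of all tested features. Their median log2 difference was -0.046. Without overlap, 22 of the 59 lay below wild type and 21 above it, where 20.7% and 49.8% of all tested features did. PHM8, a phosphatase gene of the Pho4 regulon, rose in dbp2null by 2.90 on the log2 scale (SE 0.29, limma adjusted p = 0.0458), with 12.6 and 10.5 FPKM in wild type and 73.0 and 117 FPKM in the mutant. That call ended in 11 of 17 other settings, among them the loss of either wild-type library.

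Pho4 targets went both ways. The 14 outside the VTC genes had a median of -0.013 (-0.35 without dbp2null replicate 2, 0.32 without replicate 1). Of them 6 lay below and 6 above wild type without overlap, against 20.7% and 49.8% of all tested features. By limma 11 of the 14 had an unadjusted p below 0.05, against 37.9% of all tested features. The pooled share of the 7 lists does not show this. PHO84 and SPL2 lay on the low side with the core VTC genes, with log2 differences of -1.79 and -1.95, without passing the test. Like VTC1 to VTC4, both hold CACGTG in the 500 bases before the start. So does PHO5, which overlapped between genotypes (18.8 and 18.2 FPKM in wild type, 16.7 and 22.2 FPKM in dbp2null). So does PHO89, which read higher in dbp2null (8.49 and 5.74 FPKM in wild type, 24.6 and 43.6 FPKM in dbp2null). PHO5, an acid phosphatase gene, and PHO89, a sodium-phosphate cotransporter gene, were chosen after their values were seen. Of the other targets, PHO12, PHO86 and PHM6, lower in dbp2null, hold CACGTG in this window. So do HOR2 and CTF19, which were higher, and PHO11, which overlapped. PHO8, lower, and PHM8, higher, hold only the variant CACGTT, and PHM7 and GIT1, both higher, hold neither motif. Over all tested protein-coding genes, the 370 with CACGTG in this window had a median log2 difference of 0.23, and the 5570 without it 0.35. Both dbp2null values lay below both wild-type values in 27.6% of the former and 20.4% of the latter.

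Regulators of the pathway lay on either side of the median feature. Of the PHO regulators, the Pho4 partner gene PHO2 had the highest log2 difference, 0.88 (17.6 and 13.8 FPKM in wild type, 24.4 and 35.5 FPKM in dbp2null). PHO81, for the inhibitor of the Pho80-Pho85 kinase, had the lowest (19.4 and 17.3 FPKM in wild type, 14.3 and 15.9 FPKM in dbp2null). Genes for inositol phosphate kinases and phosphatases, which make and remove the SPX ligands, were listed together with PLC1, for phospholipase C. These 7 had a median of 0.20, from DDP1 at -0.38 to PLC1 at 0.67 (-0.068 and 0.38 without dbp2null replicate 2). SPX protein genes outside the complex had a median of 0.32 over 6, from PHO81 at -0.27 to the vacuolar phosphate exporter gene PHO91 at 0.74. In these 3 lists limma called 0 genes, and 2, 1 and 2 genes had an unadjusted p below 0.05.

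The remaining lists cover pyrophosphatases and the vacuole. The 4 other polyphosphatase and pyrophosphatase genes all read lower by their means (median -0.66), from PPN2 at -1.08 to the mitochondrial pyrophosphatase gene PPA2 at -0.30. The V-ATPase, the proton pump of the vacuole, had 17 of 20 genes with a negative difference and a median of -0.81. Both dbp2null values lay below both wild-type values for 10 of the 20, against 20.7% of all tested features. The negative shift was much smaller without dbp2null replicate 2: the median was then -0.11 with 11 of 20 genes negative, where the median of all features was 0.37. Without replicate 1 the median was -1.16 with 19 negative, and with quantile normalization it was 0.16. Its extremes were VMA11 at -1.31 (244 and 308 FPKM in wild type, 193 and 62.7 FPKM in dbp2null; -0.51 without dbp2null replicate 2) and STV1, for the Golgi form of a subunit, at 0.28. Vacuolar ion transporter genes had a median of 0.55 over 6, from the zinc transporter gene ZRC1 at -0.79 to the calcium pump gene PMC1 at 1.03. Limma called 0 genes in each of these lists, and 1, 0 and 3 had an unadjusted p below 0.05.

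**Figure D5:**
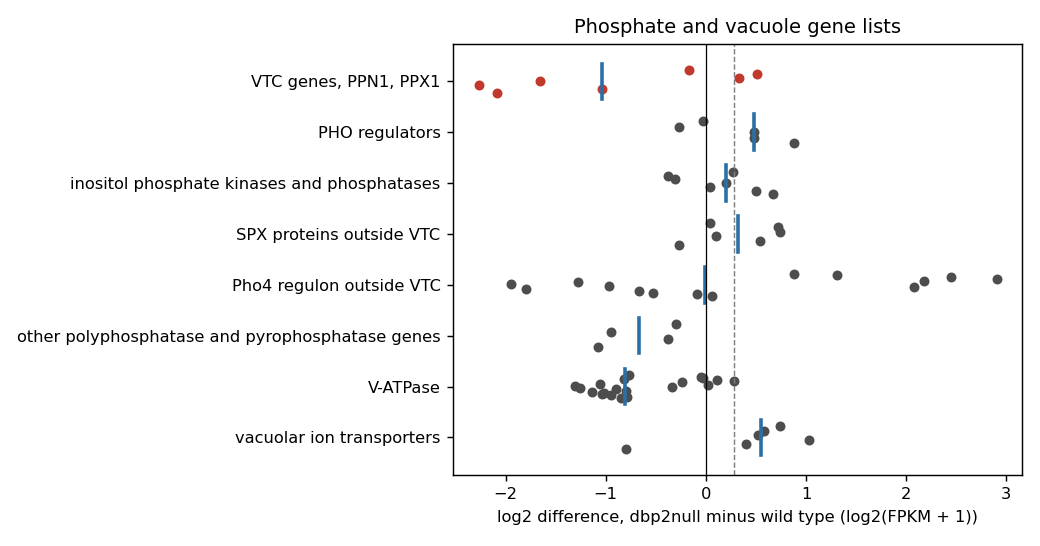
Log2 difference of each gene (dots) and list median (blue bars) for the 7 polyphosphate genes (red) and the 7 other lists, with a dashed line at 0.28, the median of all tested features. The Pho4 targets spread on both sides of 0, from -1.95 to 2.90, and 17 of 20 V-ATPase genes lie below 0, or 11 of 20 without dbp2null replicate 2.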

How the data were processed

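Ribosome-depleted total RNA was sequenced from 2 dbp2null and 2 wild-type libraries, and the authors deposited their FPKM values in a single table. The submitters' processing notes name sacCer3 as the build, and edgeR, Cufflinks, TopHat and CASAVA as tools, with roles and versions not given in the sources used here. No counts are in this table: after scaling by length, at most 18.0% of the 200 lowest protein-coding values per library lay within 0.05 of whole multiples of any step tried, against 10% by chance for any given step, so depth is unknown and no counting interval can be given.

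After 3 blank rows were left out, 6162 of 7126 features were matched by name to RefSeq R64, which is the sequence of sacCer3. The 6781 features with a mean of 1 FPKM or more were fitted on log2(FPKM + 1) with limma 3.58.1 in R 4.3.3 (mean-variance trend, no covariate, two-sided, Benjamini-Hochberg adjustment over 6781 features, called at an adjusted p below 0.05). The fit was also run on simulated data, with the same spread in every library and a smaller one than between these replicates. Here the SD of the log2 difference was 1.56 between the dbp2null and 0.71 between the wild-type libraries. That run therefore cannot show how the fit performs at the spread of these data. For 2 against 2 libraries the smallest p of an exact permutation test is 0.333. The series speaks of a biological replicate without saying how cultures were separated, so the spread between libraries may be partly technical.

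The members and the gene lists were chosen with earlier results of these data known. Named genes were the members, DBP2, called genes of each list or else its highest and lowest, the 5 nearest genes in pattern and chromosome neighbours. Promoter sequences are from RefSeq R64, and copies were sought with blastn 2.17.0. Same-numbered libraries of the genotypes are not tied by the labels. Alternatives covered the pseudocount, the filter, scaling between libraries, the trend, the replicate number as a block and each library left out.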

Additional observations from a re-analysis of the deposited data

How the results depend on the processing

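The median log2 difference of the 7 genes, -1.04, became -1.37 with median centring, -0.52 with quantile normalization, -0.22 with protein-coding rescaling and -1.17 with scaling to ALG9, TAF10, TFC1 and UBC6, and ran from -1.18 to -0.89 when a library was left out. VTC5 turned to -0.0042 with median centring, -0.52 with quantile normalization and -0.52 with cyclic loess normalization, and PPX1 to 0.64 with protein-coding rescaling. STV1 turned to -0.057, -0.29 and -0.24 with median centring, quantile and cyclic loess normalization, PMC1 to -0.040 with the last, and PHO81, ZRC1, PPA2 and DDP1 to 0.53, 0.020, 0.50 and 0.43 with protein-coding rescaling. The 81 features called (66 higher, 15 lower) became 8 (2 and 6) with a pseudocount of 0.1, 425 (380 and 45) with 5, 13 (4 and 9) with a minimum mean of 10 FPKM, 13 (3 and 10) with median centring, 5 (1 and 4) with quantile normalization, 6 (2 and 4) with reference genes, 41 (29 and 12) without the trend and 104 (51 and 53) with protein-coding rescaling. Leaving out a library gave 0 to 2512: 2512 and 90 without dbp2null replicates 1 and 2, and 0 and 6 without wild-type replicates 1 and 2, where 1423 and 854 had an unadjusted p below 0.05. Of the 59 pathway genes limma called 1 with all libraries, 5 with a pseudocount of 5, 0 with a pseudocount of 0.1, a minimum mean of 10 FPKM, the scalings or no trend (4 to 24 with an unadjusted p below 0.05), and 0 to 26 when a library was left out, 26 of them without dbp2null replicate 1. With the replicate number as a block, limma called 16 features (6 and 10), PHM8 kept its call and VTC3 lost it. Same-numbered libraries deviated with a correlation of -0.11, so the crossed block was run and called 2667 features and 19 pathway genes. Chosen after the data were seen were that block, cyclic loess normalization (6 features, 0 pathway genes, 22 with an unadjusted p below 0.05) and features above 0 in every library (1198 features, 11 pathway genes). The causes were not tested. Read depth is unknown, so no counting error could be given.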
